A study of Mus musculus with 5 samples.

Results

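The genes described here are 57 homeobox transcription factor genes outside the Hox clusters that pattern the nervous system, the head, the gut, the heart, the spleen, the somites and the skeleton. They were taken by gene symbol, and all 57 were found among 55450 annotated mouse genes, of which 21951 are protein-coding. For each gene, the H3K27me3 peaks within 3000 bp of any of its transcript start sites were read from the peak list of each library. A gene with at least 1 bp of a peak in that window is called marked. The covered length is the number of bases of the window inside peaks, and the peak width is the full length of those peaks, also where they reach beyond the window.

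The study compared dermal fibroblasts of wild-type mouse skin at 2 embryonic stages, E14 and E17 by the sample labels, with 2 libraries per stage, to ask how the mark changes as the cells differentiate. The methods call the stages E14.5 and E18.5. Chromatin carrying H3K27me3 was precipitated with an antibody from cells that had been expanded in culture, so the measurements describe cultured cells of WT genotype without a treatment at either stage. The labels and the methods differ on further points, as serum-containing DMEM, sonication and a kit for Ion Torrent stand in the labels, and AmnioMAX medium, enzymatic digestion, a Kapa kit and an Illumina sequencer stand in the methods. No label says whether the libraries of a stage came from separate embryos, so the spread between them may be technical. None of 12 dermal fibroblast marker genes, among them Col1a1, Pdgfra, Twist2 and Vim, was marked in any of the 4 libraries. Of all 21951 protein-coding genes, 4270 were marked in both E14 libraries and 12.0% were marked in all 4 libraries. The share marked in any library, which is the measure used for the 12 genes, is not given here. Whether 0 of 12 is fewer than that share would give is therefore not known.

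H3K27me3 is the trimethylation of lysine 27 of histone H3, written by the Polycomb repressive complex that contains Ezh1 or Ezh2. It covers the promoters of developmental regulators in cells that do not express them, often as broad domains over the whole gene. Homeobox genes encode transcription factors that bind DNA through a homeodomain, and they are among the best known targets of Polycomb repression in vertebrate embryos.

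The peak lists shortened between the stages. The E14 lists held 21546 and 16574 peaks over 52.8 and 32.1 Mb, and the E17 lists held 10429 and 7107 peaks over 19.996 and 14.337 Mb. Mean covered length was 59.6% lower at E17, 17.2 ± 4.001 Mb against 42.4 ± 14.7 Mb at E14 (SD, n = 2 each; p = 0.333 in a two-sided exact permutation test over libraries). With 2 libraries against 2, 0.333 is the smallest p this test can give, for the lists and for each single gene, so gene values are described without a call. Read counts are not part of the peak lists, and whether sequencing depth had a part in the shorter E17 lists was not tested. The methods state that E18.5 samples were subsampled to the depth of the others, without saying whether these libraries were among them. Fewer cells with the mark and less of the mark per cell cannot be told apart in these samples.

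Nearly all the homeobox genes of the list were marked at both stages. The E14 libraries each had 56 of the 57 genes marked and the E17 libraries each had 55, while the number of all annotated genes marked went from 8449 and 6930 to 4999 and 4176. All 4 libraries marked 55 of the 57 genes, beside 6.98% of all annotated genes and 12.0% of protein-coding genes. The exceptions were Emx2 and Meox1. By role, the genes marked in all 4 libraries were all 20 of the neural tube, hindbrain and cranial or sensory neurons, 17 of 18 of the forebrain, midbrain, eye and ear, all 10 of the gut, heart, spleen and vessels, and 8 of 9 of the somites, skeleton, face and other sites. Of the 56 members marked in both E14 libraries, 1 was marked in neither E17 library, where 25.1% of the 6441 genes marked in both E14 libraries were. Among genes whose strongest peak stood at or above the 90th percentile of fold enrichment in both E14 lists, that share was 1.61%, and none of the 53 members in this class was among them. The share over all genes marked in both E14 libraries moved with the lists. It was 12.0% of 4518 genes with lists of equal peak number, where 0 of 55 members were lost. With lists of equal covered length, chosen after seeing the data, it was 2.04% of 1913, with 0 of 53 members. At a −log10 q of at least 5 it was 36.2% of 3709, with 3 of 55 members. A choice of genes marked at E14 allows losses alone to be counted.

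Meox1, a regulator of somite development, was the member marked at E14 and not at E17. Its single peak was 2815 bp wide in E14 library 1 and 585 bp wide in E14 library 2, and both ended inside the gene, 39 and 222 bp short of the gene start at position 101894374 of chromosome 11. In fold enrichment the peak of E14 library 1 stood at percentile 60.8 of its list, somewhat above the median. The peak of E14 library 2 was weak, at percentile 26.6. In the E17 libraries the nearest peaks lay 21011 and 43554 bp from a start site. Under 6 alternative settings that drop weak or short peaks Meox1 was no longer counted as marked in both E14 libraries, and under 5 of these no member was counted as lost. Under the remaining setting, a −log10 q of at least 5, Alx4, Meox2 and Nkx6-3 were counted as lost. Meox2, the paralog of Meox1, which also acts in somites and limb muscle, was marked in every library when all peaks were used. Meox2 had 5539 and 5264 bp covered at E14 and 4267 and 3005 bp at E17, out of a window of 6001 bp, and both E17 values lay below both E14 values.

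Emx2, which patterns the dorsal forebrain and is needed for the urogenital tract, was the member without the mark. Its start sites lay 5467 bp from the nearest peak in E14 library 1, a peak of 739 bp. In the other libraries the nearest peak was 103154 bp away (E14 library 2), 103125 bp away (E17 library 1) and 196452 bp away (E17 library 2). Vax1, a gene of the ventral forebrain and optic stalk that starts 288 kb from Emx2, carried peaks of 43566, 16553, 18519 and 15530 bp in the same order of libraries, E14 first. Over the whole stretch spanned by these peaks, 43566, 31829, 33111 and 29516 bases were inside peaks, so the excess of E14 library 1 was smaller by that measure. By both measures E14 library 1 had the highest value, and the other E14 library fell within the range of the E17 libraries. The paralog Emx1, also a gene of the dorsal forebrain, had its window of 12002 bp fully covered in both E14 libraries and covered over 11340 and 11177 bp at E17.

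Where the homeobox genes were marked, the peaks were wide and covered most of the window. The window was fully covered at 44 and 40 of the 57 genes at E14 and at 35 and 32 at E17. In all 4 libraries together it was fully covered at 30 of the 55 members marked throughout, beside 6.79% of the 3871 genes marked throughout. The share of all genes with a full window in each single library is not given here. Over the 3871 genes, the median share of the window covered was 59.2% and 47.3% at E14 and 33.2% and 24.7% at E17. Median peak widths of these 55 members were 22019 and 16899 bp at E14 and 16461 and 14365 bp at E17. The same medians over all 3871 genes were 6780, 5061, 3512 and 2655 bp. Both E17 medians were below both E14 medians for the members and for all genes.

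**Figure D1:**
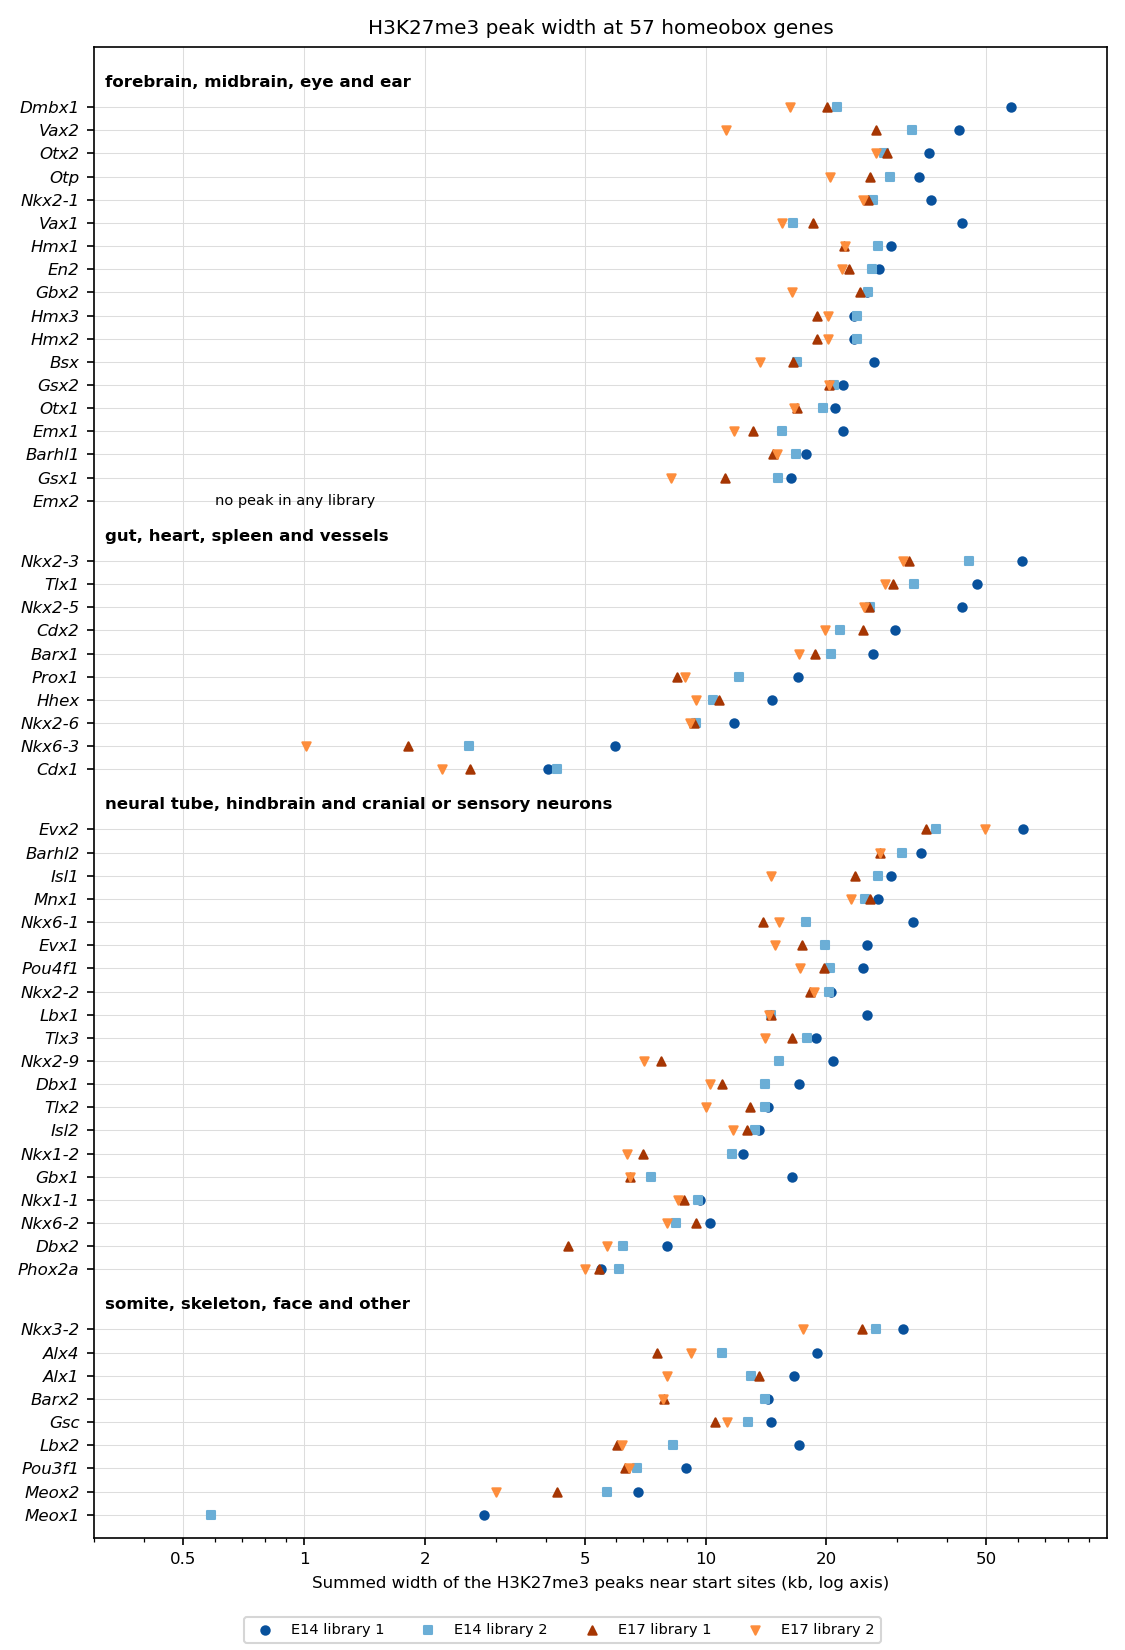
Summed width of the H3K27me3 peaks near the start sites of each of the 57 genes (kb, log axis), with 1 point for each of the 4 libraries and genes grouped by role. Emx2 has no peak in any library and Meox1 none at E17, and at 46 of the other 55 genes both E17 points lie to the left of both E14 points.

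The peaks became narrower at E17. Summed over the members, peak width was 1324 and 1005 kb at E14 and 887 and 810 kb at E17, where the peak shared by Hmx2 and Hmx3 counts for both. The mean went from 1164 ± 225 kb (SD, n = 2) to 849 ± 54.3 kb (SD, n = 2), a decrease of 27.1%. The sum over all annotated genes decreased by 48.7% and that over protein-coding genes by 53.6%. E14 library 1 decided much of the size, since without it the decrease over the members was 15.6%. Counting all bases inside peaks of the stretches these peaks span, a measure chosen after seeing the data, gave 1297 and 1145 kb at E14 and 1011 and 905 kb at E17, a decrease of 21.5%, or 16.3% without E14 library 1. By that measure both E17 values were below both E14 values at 51 of the 55 members, beside 86.2% of all genes marked throughout, and the exceptions were Alx1, Mnx1, Nkx6-2 and Vax1. In peak width, both E17 values were below both E14 values at 46 of the 55 members, beside 84.1% of all genes marked throughout and 86.2% of those at or above the 90th percentile in both E14 lists. Of the 53 members in that class, 44 had both E17 widths below. By role the counts were 16 of 20, 15 of 17, 8 of 10 and 7 of 8, in the order of the groups given above. All these counts were near the background. None of the 55 members had both E17 widths above both E14 widths, beside 0.284% of all genes. The median decrease of a gene's mean width was 26.3% over the members, 45.0% over all genes marked throughout and 36.7% over the genes at or above the 90th percentile.

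Inside the window the values moved little. The summed covered length of the members was 397 and 385 kb at E14 and 375 and 366 kb at E17, a decrease of 5.12%, where the sum over all annotated genes decreased by 46.0% and over protein-coding genes by 46.6%. Covered length was lower in both E17 libraries at 15 of the 55 members marked throughout, beside 74.0% of all genes, 77.8% of protein-coding genes and 68.1% of genes at or above the 90th percentile that were marked throughout, a class in which 13 of 53 members were lower. A window that is fully covered in every list cannot show a change, and this was the case at the 30 members above. The first 5 of these 30 by symbol were Barhl1, with 10174 bp covered in every library, and Barhl2, Barx1, Barx2 and Bsx, each with 6001 bp covered in every library. The count also moved with the window, since with Meox1 included it was 16 at 3000 bp, 8 at 1000 bp and 30 at 5000 bp, and 10 where peaks within 3000 bp were joined, a setting chosen after seeing the data. The decrease was 8.84% with the 5000 bp window, 8.73% with peaks of a −log10 q of at least 5, and 2.90% with lists of equal covered length, also chosen after seeing the data. The other 25 members had a lower mean covered length at E17 than at E14, and no member had a higher one. The share of all genes with a lower or higher mean was not counted. The median decrease of a gene's mean covered length was 0% over the 55 members, beside 36.0% over all genes marked throughout.

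The domains were also compared base by base. Within the 54 separate stretches spanned by the peaks of the 55 members, 1139 kb were inside peaks of both E14 libraries, and 873 kb of these, or 76.6%, were inside peaks of all 4 libraries. A further 130 kb were in both E14 libraries and neither E17 library, while 78 bases in all were in both E17 libraries and neither E14 library. A stretch that an E14 peak covers from end to end cannot hold bases of E17 alone. This was so at Evx2, Nkx2-3 and Tlx1, among others, and the E14 lists were longer. The contrast was thus partly set by how the stretches were drawn, and the same sums over all genes are not given here. At 47 of the 55 members, every base shared by the E17 libraries was also shared by the E14 libraries, beside 78.8% of all genes marked throughout. The share of E14 bases kept in both E17 libraries had a median of 77.8% per member, beside 52.2% over all genes marked throughout and 64.9% over those at or above the 90th percentile, and it ranged from 41.3% at Lbx2 to 98.0% at Lbx1, a gene of dorsal spinal cord interneurons and migrating limb muscle precursors. Of the 52 members with bases lost in both E17 libraries, 48 had these bases farther from the gene start than the kept ones, by the median distance, beside 74.5% of all genes. All these genes were chosen for a peak near a start site in every library, which places kept bases near the start, so the direction of this count is largely set by that choice.

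By distance from the gene start, the members were covered farther out than other marked genes. At the gene start itself 93.0% and 89.5% of the 57 members lay inside a peak at E14 and 86.0% and 84.2% at E17. At 5000 bp upstream the values were 75.4% and 66.7% at E14 and 59.6% and 47.4% at E17. For the 2645 protein-coding genes marked throughout, the values at that distance were 27.2% and 19.1% at E14 and 13.4% and 9.72% at E17. The domains reached farther into and past the gene than upstream of it. At 10000 bp downstream of the start 64.9%, 54.4%, 50.9% and 49.1% of the members were still inside a peak, E14 libraries first. At 10000 bp upstream the values were 43.9%, 33.3%, 24.6% and 21.1%. For the 2645 protein-coding genes they were 19.3%, 13.5%, 10.2% and 7.71% downstream and 16.7%, 10.7%, 6.69% and 5.03% upstream.

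**Figure D2:**
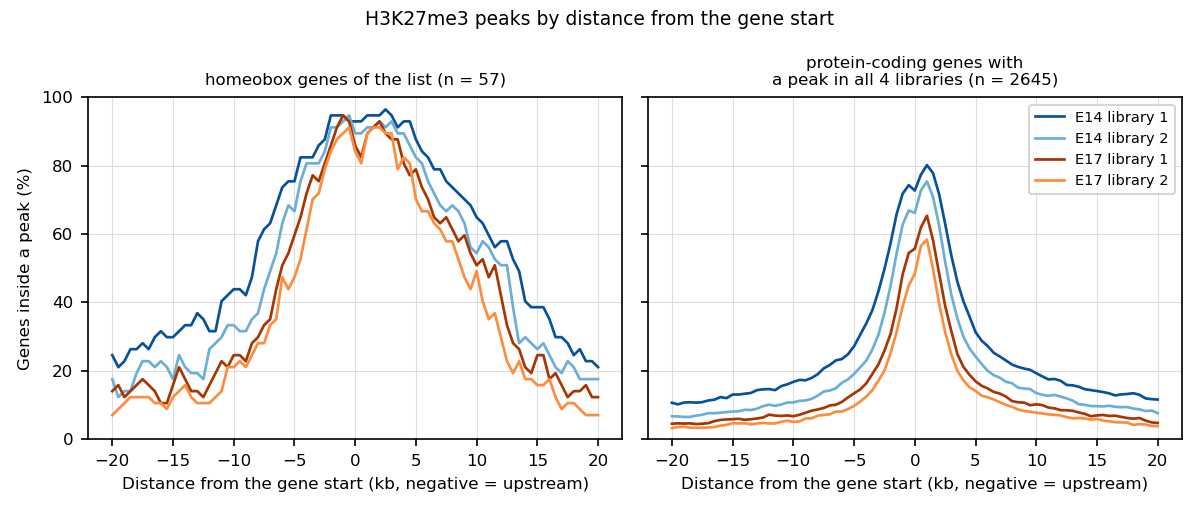
Share of genes inside an H3K27me3 peak (%) by distance from the gene start (kb, negative upstream), for the 57 homeobox genes (left) and for 2645 protein-coding genes marked in all 4 libraries (right), with 1 line per library. The members form a plateau of several kb around the start, and in both sets the E17 lines run mostly below the E14 lines.

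The fold enrichment of the peaks placed the members near the top of each list. Fold enrichment is the peak caller's ratio of pileup to local background, and its percentile within a list was used because its scale differs between lists. The median percentile of the strongest peak was 99.2 at E14 over 56 members and 98.2 at E17 over 55 members, beside 84.8 and 78.4 over all genes marked in both libraries of the stage and 85.5 and 77.8 over the protein-coding ones. With lists of equal peak number the members' medians kept that order, 97.9 at E14 and 97.5 at E17, and with lists of equal covered length, a setting chosen after seeing the data, the order turned, with 92.7 at E14 and 96.7 at E17. At E14, 53 and 49 members stood at or above the 95th percentile of their list, and at E17 44 and 39 did, beside 20.3% and 18.6% of all genes marked in the E14 libraries and 17.2% and 14.9% of those marked in the E17 libraries. Percentiles of the 2 stages come from lists of different length, and a list without its weak peaks gives the same gene a lower percentile. Both E17 percentiles were below both E14 percentiles at 32 of the 55 members, beside 73.3% of all genes marked throughout, and above both at 3 members, Emx1, Pou3f1 and Tlx3, beside 1.70%. With lists of equal peak number, the E17 percentiles were below at 17 of 55 members, beside 34.5% of all genes, and above at 6, beside 14.7%. With lists of equal covered length they were below at 3 of 53 members, Evx2, Mnx1 and Phox2a, beside 7.81%, and above at 35, beside 61.7%. For the members and for all genes, the direction of these counts was the same with lists of equal peak number. It turned with lists of equal covered length.

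Single genes are described by role, beginning with the neural tube, hindbrain and cranial or sensory neurons. Evx2, an interneuron gene at the end of the Hoxd cluster, had the widest single peak of any member, 61812 bp in E14 library 1. The other Evx2 peaks measured 37575 bp in E14 library 2 and 35386 and 49759 bp in the E17 libraries, so the stages overlapped in peak width. Over the whole stretch, 61812 and 55857 bases were inside peaks at E14 and 49929 and 51120 at E17, without overlap. In every library the Evx2 peak also held the starts of Hoxd11, Hoxd12 and Hoxd13, which specify the distal limb, so that its width is not a property of Evx2 alone. Nkx2-9, a gene of the ventral neural tube, went from 20735 and 15211 bp to 7742 and 7012 bp, without overlap and with a decrease of mean width of 59.0%. Its whole stretch held 20735 and 15919 bases inside peaks at E14 and 11061 and 10556 at E17. Mnx1, which specifies motor neurons, changed by 5.90% in mean width, with 26910 and 24933 bp at E14 and 25707 and 23075 bp at E17. The Mnx1 values of the stages overlapped, and the size of this change depended on single libraries, among them E14 library 1 with the widest peak.

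Dbx2, a gene of spinal cord interneuron progenitors, had a covered length among the lowest of the 55 members. It was covered over 3477 and 2843 bp at E14 and 2321 and 2392 bp at E17 of a window of 12002 bp, and the stages did not overlap. Isl1, a gene of motor neurons and of the second heart field, and Nkx2-2, a gene of the ventral neural tube and of pancreatic beta cells, were among the 5 members with the longest covered length. Isl1 was covered over its whole window of 12339 bp in 3 libraries and over 11918 bp in E17 library 2. Nkx2-2 was covered over its whole window of 12306 bp in 3 libraries and over 11862 bp in E17 library 1. Phox2a, needed for noradrenergic neurons, had peak widths of 5484 and 6077 bp at E14 and 5414 and 5001 bp at E17. The widths did not overlap between the stages, although those of E14 library 1 and E17 library 1 were close. Its percentile of fold enrichment was 98.9 and 97.6 in the E14 lists and 92.8 and 82.6 in the E17 lists. With lists of equal covered length it was 85.0 and 83.5 at E14 and 81.8 and 82.6 at E17, a smaller difference in the same direction.

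In the group of the forebrain, midbrain, eye and ear, Dmbx1, a gene of the diencephalon and midbrain, had a single peak of 57520 bp in E14 library 1, and its peaks summed to 21272 bp in E14 library 2 and to 20062 and 16245 bp at E17. By that sum E14 library 2 lay near the E17 libraries, but over the whole stretch spanned by these peaks 57520 and 51570 bases were inside peaks at E14 and 36917 and 29711 at E17, without overlap between the stages. Gsx2, a gene of the ventral telencephalon, changed by 5.58% in mean width, with 22019 and 20912 bp at E14 and 20274 and 20263 bp at E17. The size of the Gsx2 change depended on E14 library 1, which had the widest peak. Hmx2 and Hmx3, neighbouring genes of the inner ear and hypothalamus, were the only pair of members within 1 peak, which measured 23412 and 23825 bp at E14 and 18946 and 20140 bp at E17. That peak stood at the 99th percentile or higher in each list, and its E17 widths lay below both E14 widths.

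Otx2, needed for the forebrain and midbrain, had the longest covered length of all members. Its window of 17714 bp was fully covered in E14 library 1 and E17 library 1, and over 16972 bp in E14 library 2 and 15507 bp in E17 library 2. The libraries that had a full window thus came from both stages. Otx1, its paralog in the cortex and inner ear, was covered over 6301 and 5732 bp at E14 and over 4642 and 5081 bp at E17, without overlap. By percent of the E14 mean, Otx1 was among the 5 with the largest decrease of covered length of the members marked throughout. Otp, which specifies neuroendocrine neurons of the hypothalamus, had a window of 12002 bp that was fully covered in 3 libraries and covered over 10956 bp in E17 library 2, where 3 separate peaks took the place of 1.

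Among the genes of the gut, heart, spleen and vessels, Nkx2-3, needed for the spleen and the gut, had peaks of 61458 and 45370 bp at E14 and 32059 and 30994 bp at E17. Tlx1, without which no spleen forms, had peaks of 47341 and 33128 bp at E14 and 29243 and 27998 bp at E17. Over the whole stretch, Nkx2-3 had 61458 and 51542 bases inside peaks at E14 and 47545 and 39734 at E17. Tlx1 had 47341 and 40610 at E14 and 38855 and 32301 at E17. The stages did not overlap by that measure, but the decrease was smaller at both genes. At both spleen genes each E17 peak was narrower than each E14 peak, and the window around the start was fully covered in every library. Cdx2, which specifies the intestinal epithelium, overlapped between the stages, with 29572 and 21565 bp at E14 and 24724 and 19855 bp at E17 in peak width, but not over the whole stretch, where 29572 and 27108 bases were inside peaks at E14 and 24724 and 20059 at E17.

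The weakest members of the gut group were Nkx6-3 and Cdx1. Nkx6-3, a gene of endocrine cells of the stomach, was covered over 3313 and 2572 bp of 6001 bp at E14 and over 1818 and 1009 bp at E17. It had the lowest mean covered length of the 55 members. At a window of 1000 bp, Nkx6-3 was no longer marked in both E17 libraries. Cdx1, a gene of the intestinal epithelium and of axial patterning, was covered over 4049 and 3770 bp at E14 and over 2595 and 2202 bp at E17. Both genes had a lower covered length in each E17 library than in each E14 library.

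Among the genes of the somites, skeleton, face and other sites, Lbx2 had peaks of 17077 and 8313 bp at E14 and 6018 and 6201 bp at E17, with E14 library 2 nearer to the E17 libraries than to E14 library 1. Over the whole stretch spanned by these peaks, which also holds separate peaks outside the window, 17077 and 14927 bases were inside peaks at E14 and 7924 and 7276 at E17. Alx4, a gene of the craniofacial skeleton and limb buds, had peaks of 18925 and 10971 bp at E14 and 7592 and 9202 bp at E17, without overlap. Over the whole stretch the values were 18925 and 10971 bases at E14 and 10843 and 9987 at E17, so that E14 library 2 and E17 library 1 were close. The width of its paralog Alx1 overlapped between the stages, with 16608 and 13009 bp at E14 and 13612 and 8004 bp at E17.

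The gene start was not always inside the domain. It lay inside a peak in all 4 libraries at 48 of the 55 members marked throughout, beside 45.9% of all genes marked throughout. It lay in no peak of any library at 1 member, Gbx1, beside 22.8% of all genes. Gbx1, a spinal cord gene, starts at position 24527202 of chromosome 5, and peaks flanked that position in each library with a gap of 1060 and 1090 bp at E14 and 1131 and 1107 bp at E17. The stretch without a peak in any library ran over 1047 bp, chr5:24526246-24527292, across the start and the first part of the transcribed region.

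Pou3f1, a gene of myelinating Schwann cells, had the same kind of gap just past its start. The gene start at position 124656807 of chromosome 4 was inside a peak in every library, and a stretch of 1258 bp, chr4:124657156-124658413, was free of peaks in all 4. Peaks of every library flanked it on both sides. The covered length of Pou3f1 was 4660 and 2907 bp at E14 and 3628 and 3762 bp at E17, so the stages overlapped. Gbx1 and Pou3f1 were the only members with a stretch free of peaks in all 4 libraries and flanked by peaks in each. They are named after their values were seen. The share of all genes marked throughout with such a stretch was not counted, so whether this is unusual is not known.

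At other members the start was uncovered in some libraries. Vax2, a gene of the ventral retina, was the only member with the start inside a peak in both E14 libraries and in neither E17 library, beside 9.20% of all genes marked throughout. Its single peak measured 42855 and 32719 bp at E14. In the E17 libraries a gap of 953 and 928 bp lay over the start, at position 83711264 of chromosome 6. The start was not the only break of this domain at E17. Another lay between positions 83694978 and 83695906 in E17 library 1, and E17 library 2 had several, among them between 83705849 and 83707071. Prox1, the lymphatic endothelial regulator, Pou4f1, a gene of sensory neurons, and Dbx2 were covered at the start in E14 library 1 and uncovered in the other 3 libraries. Gaps at Prox1 were 911 bp in E14 library 2 and 1359 and 1221 bp at E17, and those at Pou4f1 were 707 bp in E14 library 2 and 894 and 1276 bp at E17. At Dbx2 the peak ended inside the gene, 158 bp short of the start in E14 library 2 and 680 and 609 bp short at E17. The Nkx6-3 start was covered in E14 library 2 alone, and the Alx4 start was uncovered in E17 library 2 alone.

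**Figure D3:**
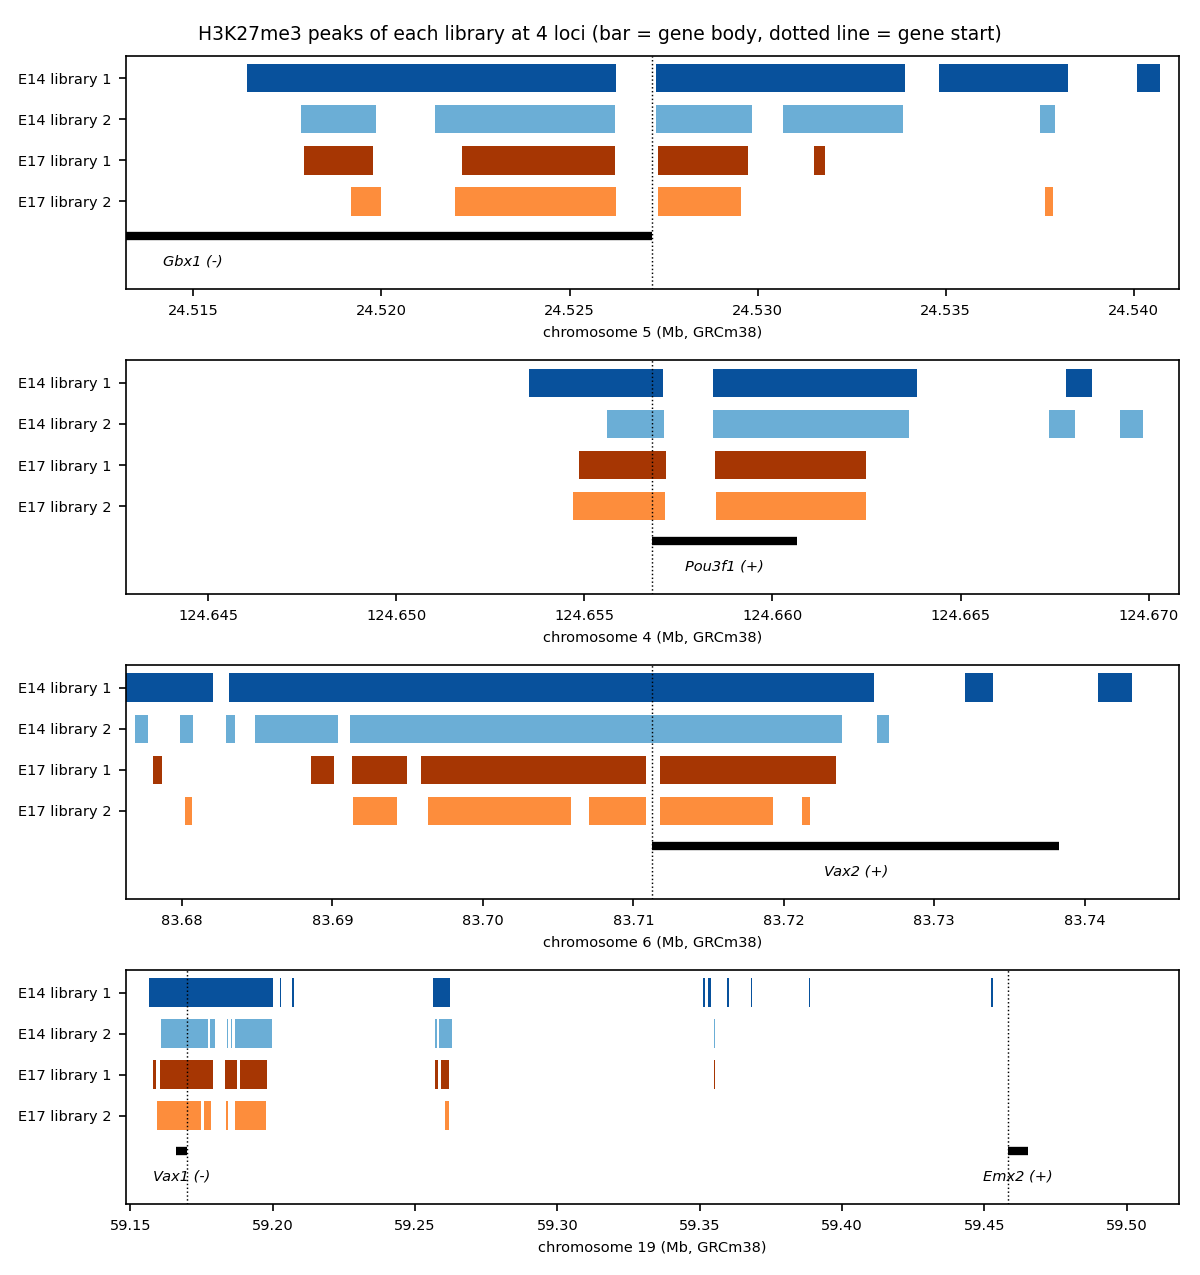
H3K27me3 peaks of the 4 libraries (coloured bars) along chromosomes 5, 4, 6 and 19 (Mb, GRCm38) at Gbx1, Pou3f1, Vax2 and the interval from Vax1 to Emx2, with gene bodies in black and gene starts as dotted lines. Peaks of every library flank a shared gap at Gbx1 and Pou3f1, a gap over the Vax2 start is seen at E17, and the peaks at Vax1 end far from Emx2.

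Promoter sequences from the RefSeq table for GRCm38.p6 were found for 42 of the 57 members. The 250 bases before the RefSeq start are shown for Emx2, which lay outside the peaks of every library, and for Hmx3 and Tlx3, whose stretches lay inside a peak in every library and whose peaks had the highest percentile of any member in an E17 list. Tlx3 specifies excitatory neurons of the dorsal horn. Capitals mark the dinucleotide CG, which reads the same on both strands and of which 92.1% of 32841 promoter stretches of this length hold at least 1, with a median of 6.
Emx2 (chr19:59458440-59458689, plus strand): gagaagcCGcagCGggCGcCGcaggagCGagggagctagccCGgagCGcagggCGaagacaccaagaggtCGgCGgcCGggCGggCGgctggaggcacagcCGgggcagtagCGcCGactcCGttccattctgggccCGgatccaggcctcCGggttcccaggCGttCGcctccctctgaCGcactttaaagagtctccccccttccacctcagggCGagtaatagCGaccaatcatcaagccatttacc
Hmx3 (chr7:131542713-131542962, plus strand): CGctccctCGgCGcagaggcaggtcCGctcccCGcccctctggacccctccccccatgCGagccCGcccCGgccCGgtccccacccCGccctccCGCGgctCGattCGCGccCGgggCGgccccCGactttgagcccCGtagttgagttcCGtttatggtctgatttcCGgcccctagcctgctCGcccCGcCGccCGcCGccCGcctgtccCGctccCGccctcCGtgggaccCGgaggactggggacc
Tlx3 (chr11:33203589-33203838, minus strand): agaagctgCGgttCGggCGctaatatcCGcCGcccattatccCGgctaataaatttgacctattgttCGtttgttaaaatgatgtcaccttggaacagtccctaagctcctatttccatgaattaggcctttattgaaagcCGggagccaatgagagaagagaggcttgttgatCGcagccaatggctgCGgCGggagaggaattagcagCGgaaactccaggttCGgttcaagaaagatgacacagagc
The Emx2 stretch held 24 CG and 67.2% G or C, the Hmx3 stretch 31 CG and 76.8%, and the Tlx3 stretch 13 CG and 48.8%. At least as many CG were found in 12.0%, 5.19% and 31.5% of all promoter stretches, in the same order. The unmarked promoter thus had a CG number between those of the marked promoters.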

How the data were processed

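H3K27me3 ChIP-seq of 2 E14 and 2 E17 libraries was analysed from 1 broad peak list per library, without pooling. The submitters' processing notes name Bowtie2 2.3.5.1, SAMtools 1.9, MACS2 2.2.7.1, deepTools 3.5.1 and the mm10 build. The authors deposited, for each peak, an integer score (not used), a fold enrichment ratio, and −log10 values of p and q. The lowest −log10 q was 2.04 and 2.07 at E14 and 2.08 and 2.09 at E17. The control of the peak call is not given in the sources used here. The input library was not analysed here. Genes came from GENCODE vM21 (GRCm38). Members and lists were chosen with earlier results of these data known. Genes named by rule were those unmarked in at least 1 library, those sharing a peak and the 5 with the widest peak. Also named by rule were the 5 highest and 5 lowest in covered length and the 5 with the largest and smallest percent decrease of it. Of 30 tied at no decrease, the first 5 by symbol were taken. Other genes were named after their values were seen. Since 73.7% of members matched a promoter, base composition was not compared over the members. Analyses were run in Python 3.11.15 with scipy 1.17.1, pandas 2.3.3 and numpy 2.4.6. On simulated peaks, the covered length was checked against a count base by base. The presence of the mark at further homeobox genes outside the members is not reported here.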

Additional observations from a re-analysis of the deposited data

How the results depend on the processing

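The counts of members marked in both E14, both E17 and all 4 libraries (56, 55 and 55) stayed within 1.5 times under every setting tried, and so did the 47 members, Meox1 included, with lower peak width in both E17 libraries. Joining peaks within 3000 bp and lists of equal covered length were chosen after seeing the data, as was the count of narrower members. Covered length was lower in both E17 libraries at 16 members, Meox1 included, and at 8 with a 1000 bp window, 30 with a 5000 bp window and 10 with joined peaks. The 1 member marked at E14 and not at E17 became 0 at a −log10 q of at least 3, a −log10 p of at least 5, a width of at least 1000 bp, equal numbers of peaks (7107) or equal covered length, and 3 (Alx4, Meox2 and Nkx6-3) at a −log10 q of at least 5. The decrease in covered length (5.12%) was 4.58% and 8.84% with windows of 1000 and 5000 bp, 4.66% with protein-coding starts, 8.73% at a −log10 q of at least 5, 4.41% with equal numbers, 4.37% with joined peaks, 2.90% with equal covered length, and 3.66% to 6.55% leaving out 1 library. The decrease in width (27.1%) was 15.6% to 35.9% leaving out 1 library and 21.5% over all bases of the stretches. With the replicate block, the mean of the decreases within each replicate number, they were 5.12% and 26.2%. No label says whether libraries of the same number share a batch, and this was not tested. The deviations of same-numbered libraries had a correlation of -0.00363 over 55 members, which cannot settle it. Library 1 had more peaks than library 2 at both stages, 21546 against 16574 at E14 and 10429 against 7107 at E17. The 32 members with lower percentiles in both E17 libraries became 17 with equal numbers and 3 with equal covered length, the settings tried for this count, both chosen for it after seeing the data. Median percentiles (99.2 at E14, 98.2 at E17) were 98.7 and 97.1 at a −log10 q of at least 3, 96.7 and 93.2 at 5, 98.8 and 97.7 at a −log10 p of at least 5, 98.4 and 96.2 with peaks of at least 1000 bp, 97.9 and 97.5 with equal numbers, 98.9 and 97.5 with joined peaks, and 92.7 and 96.7 with equal covered length, where the order of the stages turned. The E17 median was 98.2 (98.15) with a 1000 bp window and 98.0 to 98.2 leaving out 1 library. The cause of these shifts was not tested.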

Other observations

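Marker genes of other cell types were read as presence or absence of the mark, not as expression. Of 6 keratinocyte genes, Cdh1 and Krt1 were marked in all 4 libraries and 4 were marked in none. Of 4 endothelial genes, Kdr was marked in all 4 libraries and 3 in none, and of 4 melanocyte and Schwann genes, Sox10 was marked in all 4 and 3 in none. None of 3 immune genes was marked in any library. Of 3 muscle genes, Des and Myod1 were marked in all 4 libraries, and Myf5 was marked in both E14 libraries and neither E17 library. Together, 6 of these 20 genes were marked in all 4 libraries, beside 12.0% of protein-coding genes.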
